A study of Mus musculus with 4 samples.

Results

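The simple epithelial keratins are the intermediate filament proteins of single-layered epithelia such as the gut lining. The group described here was 6 genes chosen by name with earlier results of these arrays known, namely Krt7 and Krt8 of the basic type II family and Krt18, Krt19, Krt20 and Krt23 of the acidic type I family, out of 22911 genes that had a named probe. Each of the 6 had 1 probe, placed on the array as 1 spot, and all 6 were well above background in all 4 populations. RNA had been measured on 4 one-colour Agilent arrays, with 1 array for each sorted population, so no difference could be tested and every value below describes these 4 arrays.

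All cells came from intestinal tumours of Lgr5CreERT2/+ mice whose Ctnnb1 genotype is given as Ctnnb1lox(ex3)/ox(ex3), collected 14 days after tamoxifen. Cre in these animals is driven from the Lgr5 locus, and its action on this allele gives a stabilised form of beta-catenin in intestinal stem cells and their progeny. Genotype and treatment were the same for all 4 populations. Cells were sorted for the epithelial surface protein EpCAM and then by the stem cell receptor Lgr5 and a tuft marker, the IL-25 receptor subunit IL17RB, into 4 populations. Those positive for both, here called double positive, are followed by those with Lgr5 but no tuft marker, Lgr5-only, by those with the tuft marker but no Lgr5, tuft-only, and by those with neither, double negative. Animal age and sex, the part of the intestine and the number of animals behind each sort were not given in the sources used here. A healthy or non-tumour population was not analysed here.

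Keratin filaments are built from equal amounts of a type I and a type II chain, and a chain without a partner is degraded. Keratin 8 and keratin 18 are the main pair of simple epithelia. Keratin 19 is a type I chain that lacks most of the tail domain and is strong in intestinal crypts and in ducts, keratin 20 is a type I chain of differentiated gut epithelium, and keratin 7 is a type II chain of ducts and urothelium that is scarce in the normal intestine. Keratin 23 is a type I chain known mainly from human carcinoma cells exposed to histone deacetylase inhibitors. Antibodies to keratin 18 have been used in rat tissue to stain tuft cells, which are also called brush cells.

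A level is the log2 signal of a probe after subtraction of the array's own 75th percentile, which therefore sits at 0. Each level carries the error that the scanner software gave for the spot, 0.14 to 0.15 on the log2 scale for every keratin. The difference of 2 arrays then had an error of 0.20 to 0.21. This error is the software's own estimate, nearly constant over keratins and arrays, and is not a spread measured here. Copies of probes spotted 10 times varied less, with a median SD of 0.06 on each array. Differences are set against the error as it stands, without a multiple. It leaves out how animals, sorts and labelling may vary. Levels of different keratins are not set against each other, because each comes from its own probe. In sorted populations, fewer cells of a type and less RNA per cell cannot be told apart.

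The sequences just before the annotated starts of Krt18 and Krt23, whose signal was above that of tuft marker- cells in both Lgr5 classes, and of Krt8 and Krt20, which were higher with it by more than the error within Lgr5+ alone, are shown so that the partner genes can be compared. They are the 250 bases before each start, from RefSeq on GRCm38.p6, 5′ to 3′ on the strand of the gene.
Krt18, chr15:102027966-102028215, plus strand: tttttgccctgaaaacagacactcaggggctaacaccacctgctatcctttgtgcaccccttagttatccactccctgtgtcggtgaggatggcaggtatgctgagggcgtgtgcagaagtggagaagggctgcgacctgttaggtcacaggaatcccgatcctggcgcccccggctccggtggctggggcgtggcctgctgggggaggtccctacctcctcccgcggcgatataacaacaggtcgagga
Krt23, chr11:99493121-99493370, minus strand: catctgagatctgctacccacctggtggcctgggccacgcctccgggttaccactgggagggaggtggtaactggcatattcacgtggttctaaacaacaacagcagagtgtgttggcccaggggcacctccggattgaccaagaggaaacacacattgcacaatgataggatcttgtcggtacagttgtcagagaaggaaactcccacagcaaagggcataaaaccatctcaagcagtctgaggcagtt
Krt8, chr15:102004343-102004592, minus strand: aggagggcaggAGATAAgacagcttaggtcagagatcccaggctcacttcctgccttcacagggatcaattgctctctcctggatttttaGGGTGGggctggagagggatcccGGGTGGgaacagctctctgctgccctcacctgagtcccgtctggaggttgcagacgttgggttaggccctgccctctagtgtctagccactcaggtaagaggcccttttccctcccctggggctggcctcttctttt
Krt20, chr11:99438154-99438403, minus strand: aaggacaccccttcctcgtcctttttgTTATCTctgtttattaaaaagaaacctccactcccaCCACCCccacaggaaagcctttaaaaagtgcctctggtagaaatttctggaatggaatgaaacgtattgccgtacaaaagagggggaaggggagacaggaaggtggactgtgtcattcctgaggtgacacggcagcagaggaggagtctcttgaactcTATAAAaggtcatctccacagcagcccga
Capitals mark any match, on either strand, to 8 short motifs. These were the TATA box spelled TATAAA, the GC box spelled GGGCGG, the CACC box spelled CCACCC, the AP-1 site spelled TGANTCA, the octamer bound by POU factors, spelled ATGCAAAT, the core bound by TCF and LEF factors, spelled CTTTGA, the core bound by ETS factors, spelled CCGGAA, and the GATA factor site spelled AGATAA. None of the matches shown overlapped another. The Krt20 window held a TATA box that began 29 bases before the start, a CACC box and a GATA match, and the Krt8 window 2 CACC boxes and a GATA match. The Krt18 and Krt23 windows held no match to these letters. Of 32851 such windows in the same RefSeq table, 12.4% held the TATA box, 28.1% the CACC box, 9.99% the GATA match, 32.7% the GC box, 13.8% the TCF/LEF core, 12.03% the ETS core, 6.75% AP-1 and 1.60% the octamer. Krt8 and Krt18 lie on opposite strands of chromosome 15 with their starts facing each other, and their windows had a GC content of 58.0% and 60.4%, where the median window had 52.4%.

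Krt18, the type I partner of Krt8, followed the tuft marker in both Lgr5 classes. In the main scaling it showed no difference with Lgr5 beyond the error. Its level was 6.74 in double positive cells, 5.09 in Lgr5-only cells, 6.78 in tuft-only cells and 5.20 in double negative cells. Both tuft marker+ populations were high and both tuft marker- populations low, with a gap of 1.54 between them and neighbours within each set closer than the error. Double positive cells had 3.13-fold more Krt18 signal than Lgr5-only cells, a log2 difference of 1.65 (error 0.20). Tuft-only cells had 2.99-fold more than double negative cells (1.58, error 0.20). Of all measured genes, 4.21% differed upward by at least as much within Lgr5+ and 6.89% within Lgr5-. The tuft marker difference of Krt18 was nearly the same in both Lgr5 classes, with a difference between them of 0.07 (error 0.29). Lgr5+ minus Lgr5- was -0.05 among tuft marker+ cells and -0.11 among tuft marker- cells, both smaller than the error of 0.20. Over all settings tried the first ran from -0.21 to 0.18 and the second from -0.23 to -0.04. The lowest values, -0.21 with the authors' value table and -0.23 with median scaling, were slightly past the error.

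Krt8, the type II partner of Krt18, went the same way with the tuft marker within Lgr5+, by less, but not within Lgr5-. Its level was 5.62 in double positive cells, 4.71 in Lgr5-only cells, 5.10 in tuft-only cells and 5.10 in double negative cells. The double positive population stood highest, both Lgr5- populations were equal within the error, and Lgr5-only cells stood lowest. With the tuft marker, Krt8 was 1.89-fold higher within Lgr5+ (0.92, error 0.20). Within Lgr5- the difference was 0.00 (error 0.20), and it ran from -0.23 with arrays scaled to their medians to 0.30 with the authors' value table. Between Lgr5+ and Lgr5- cells, Krt8 differed by 0.53 within tuft marker+ and by -0.39 within tuft marker- cells (error 0.20 each).

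**Figure D1:**
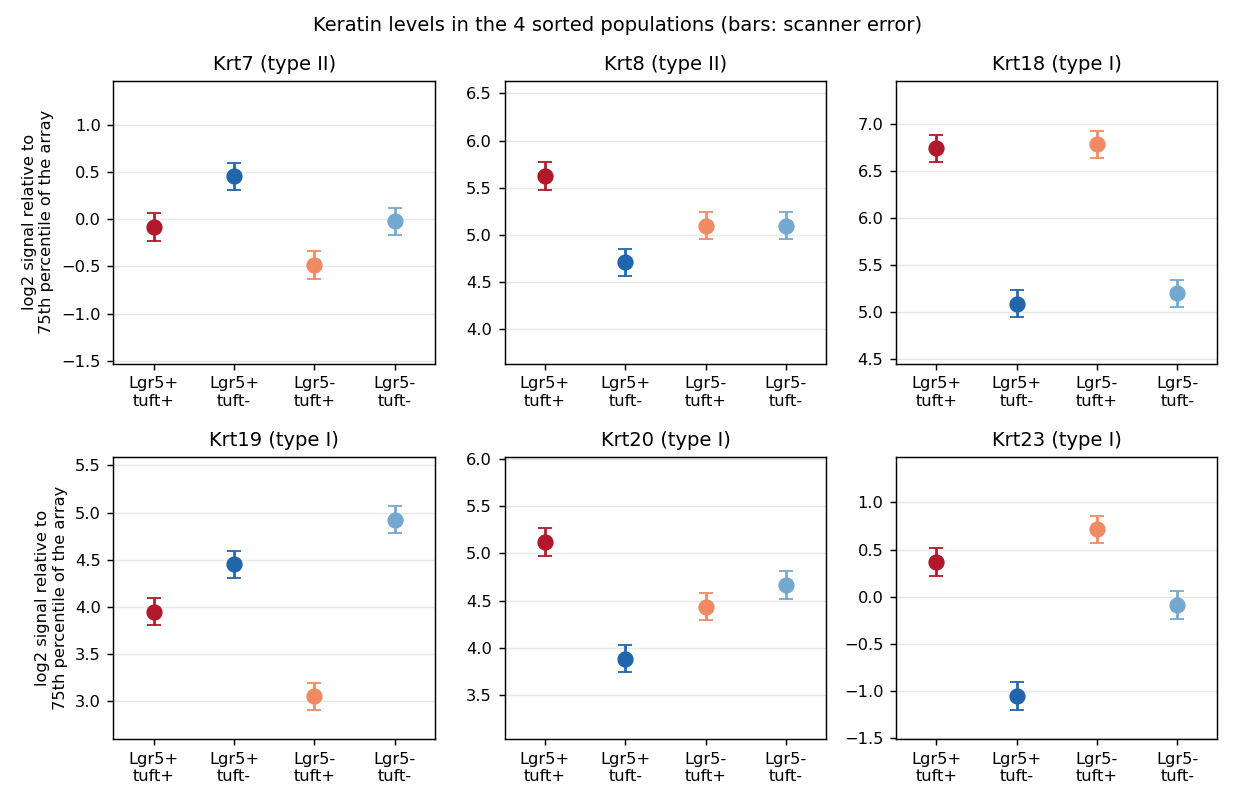
Level of each keratin (log2, with the array's 75th percentile at 0, vertical axis) in the 4 sorted populations, 1 array each, with the scanner error as bars; every panel covers the same log2 range around its own mean. Krt18 stands at 6.74 and 6.78 in the tuft marker+ populations and at 5.09 and 5.20 in the tuft marker- populations, while Krt19 is lowest in tuft-only cells at 3.05.

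Krt19, the type I chain without most of the tail, went the opposite way to Krt18. Its level was 3.95 in double positive cells, 4.45 in Lgr5-only cells, 3.05 in tuft-only cells and 4.93 in double negative cells. Both tuft marker+ populations lay below both tuft marker- populations, and each step in that order was larger than its error. With the tuft marker, Krt19 was 3.67-fold lower within Lgr5- (-1.88, error 0.20), and 1.36% of all measured genes were as low or lower. Within Lgr5+ it was 1.42-fold lower (-0.50, error 0.20). Between Lgr5+ and Lgr5- cells Krt19 differed by 0.90 within tuft marker+ cells and by -0.48 within tuft marker- cells (error 0.20 each), so the direction was not shared by both tuft marker classes.

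Krt20, the keratin of differentiated gut epithelium, had a pattern close to that of Krt8. Its level was 5.12 in double positive cells, 3.88 in Lgr5-only cells, 4.44 in tuft-only cells and 4.66 in double negative cells. Double positive cells were again highest and Lgr5-only cells lowest, with both Lgr5- populations between them and little more than the error apart. With the tuft marker, Krt20 was 2.36-fold higher within Lgr5+ (1.24, error 0.20). Within Lgr5- the difference was -0.23 (error 0.20), which the authors' value table turned to 0.065. Lgr5+ minus Lgr5- was 0.69 among tuft marker+ cells and -0.78 among tuft marker- cells (error 0.20 each).

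Krt23 was higher in tuft marker+ cells of both Lgr5 classes, as Krt18 was, on a dimmer probe. Its level was 0.37 in double positive cells, -1.05 in Lgr5-only cells, 0.72 in tuft-only cells and -0.09 in double negative cells. Both tuft marker+ populations lay above both tuft marker- populations. Krt23 was 2.69-fold higher in double positive than in Lgr5-only cells (1.43, error 0.21), and 1.75-fold higher in tuft-only than in double negative cells (0.81, error 0.21). Unlike Krt18 it was lower in Lgr5+ than in Lgr5- cells of both tuft marker classes, at -0.34 among tuft marker+ and -0.96 among tuft marker- cells (error 0.21 each). Its processed intensity, before scaling between arrays, was 168 and 84.3 units in double positive and Lgr5-only cells, and 220 and 135 units in tuft-only and double negative cells, over a local background of 32.0 to 34.0 units.

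Krt7, the type II chain of ducts, varied least beside Krt8. Its level was -0.08 in double positive cells, 0.46 in Lgr5-only cells, -0.49 in tuft-only cells and -0.02 in double negative cells. The tuft marker difference was -0.54 within Lgr5+ and -0.46 within Lgr5- (error 0.21 each), and Lgr5+ minus Lgr5- was 0.41 among tuft marker+ cells and 0.48 among tuft marker- cells (error 0.21 each). Krt7 was thus lower with the tuft marker and higher with Lgr5 in both classes, each time by less than 2-fold. Its levels spanned 0.94 over the 4 arrays, and 49.6% of the 14053 genes above background on all 4 arrays spanned as much or more. The span of Krt8 was 0.92 (51.9% of genes), that of Krt20 1.24 (29.1%), that of Krt18 1.69 (11.8%), that of Krt23 1.77 (10.3%) and that of Krt19 1.88 (8.41%).

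Set against all genes, the keratins were called most often in the tuft marker comparison within Lgr5+. There 3 of 6 were at least 2-fold higher with the tuft marker (Krt18, Krt20 and Krt23), where 10.4% of 17501 measured genes were, and 0 of 6 were at least 2-fold lower, where 8.08% were (18.5% either way). The 3 became 4 with median scaling, which added Krt8 at 1.02, and 2 after normexp, where Krt23 stood at 0.97. Within Lgr5-, 1 of 6 was at least 2-fold higher (Krt18; 16.3% of 17911 genes) and 1 of 6 lower (Krt19; 12.2%), where 28.5% of genes were called either way. In both Lgr5 classes together, Krt18 was the 1 keratin at least 2-fold higher with the tuft marker, as were 4.75% of 16757 genes, and 0 were lower in both, as were 1.38%. Between Lgr5+ and Lgr5- cells, 0 of 6 keratins were at least 2-fold apart, where 8.92% of genes were higher and 11.3% lower within tuft marker+ (20.2% either way) and 6.44% higher and 5.25% lower within tuft marker- (11.7%). In both tuft marker classes together 0 of 6 were, beside 0.727% of 16497 genes higher in both and 0.582% lower in both. The median keratin difference was 1.08 and -0.11 for the tuft marker within Lgr5+ and Lgr5-, and 0.47 and -0.43 for Lgr5 within tuft marker+ and tuft marker-, beside 0.01, 0.08, -0.04 and 0.00 for all genes. With 6 genes chosen by name, these counts describe the members and say nothing about keratins as a class.

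The background shares depend on how arrays were scaled. Within Lgr5-, 57.2% of the genes at least 2-fold apart were higher in tuft marker+ cells, which became 37.0% when arrays were scaled to their medians and 79.5% with the authors' value table. Within Lgr5+ the share was 56.2%, and 72.8% after normexp, 46.3% with no floor under dim probes and 47.1% with the scanner's positive and significant flag as the detection rule. For Lgr5 within tuft marker+ it was 44.0%, and 67.0% with median scaling, 54.1% after quantile normalization and 28.0% with the authors' value table. For Lgr5 within tuft marker- it was 55.1%, and 40.9% with median scaling, 44.4% after normexp and 47.0% after quantile normalization. Normexp also made the shares of genes called smaller, at 3.79% higher and 1.42% lower for the tuft marker within Lgr5+ and 5.30% and 4.38% within Lgr5-. For Lgr5 they became 2.16% higher and 2.20% lower among tuft marker+ cells and 0.753% and 0.941% among tuft marker- cells.

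**Figure D2:**
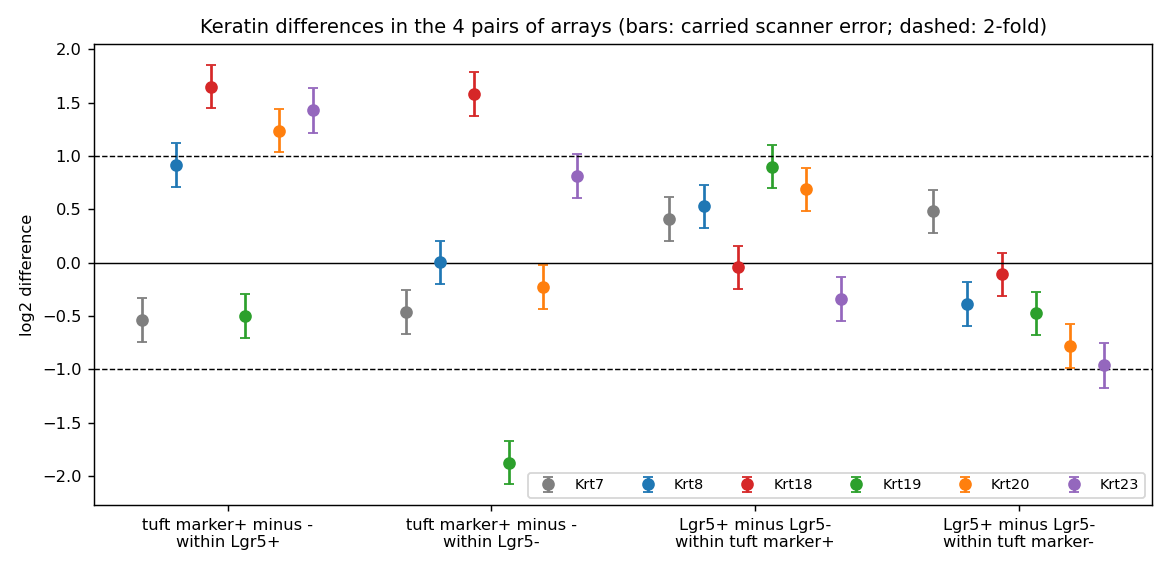
Log2 difference of each keratin in the 4 pairs of arrays, with the carried scanner error as bars and dashed lines at 2-fold. Krt18 lies at 1.65 and 1.58 in both tuft marker pairs and near 0 in both Lgr5 pairs, whereas Krt8, Krt19 and Krt20 lie on opposite sides of 0 in the 2 Lgr5 pairs.

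**Figure D3:**
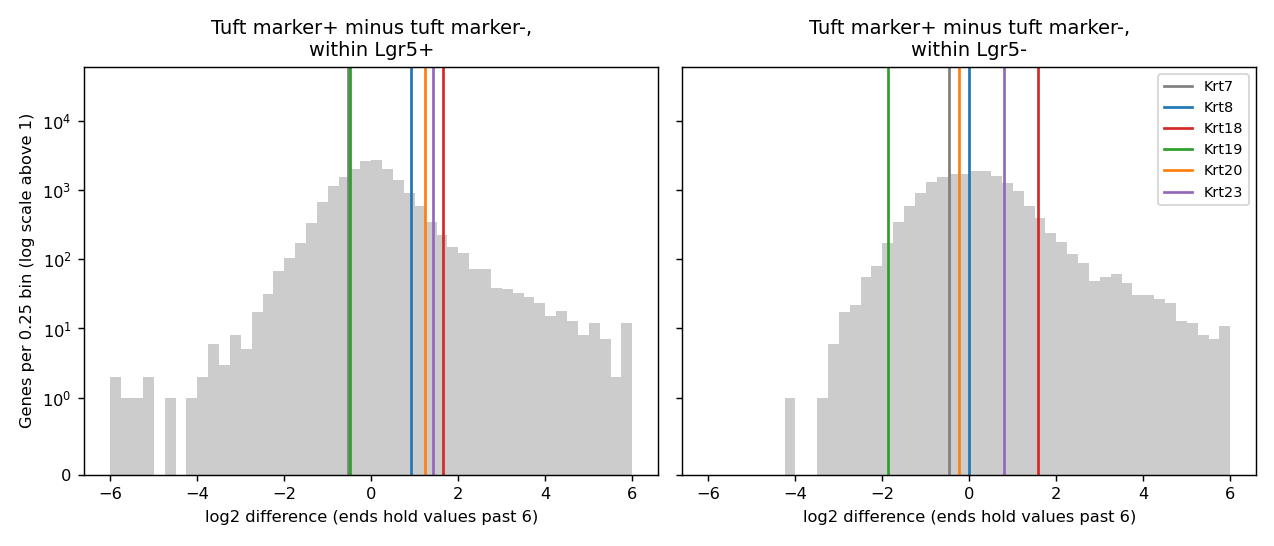
Number of genes per bin of log2 difference (grey bars, log scale above 1) for tuft marker+ minus tuft marker- within Lgr5+ (left) and within Lgr5- (right), with the keratins as vertical lines. Within Lgr5+, Krt18, Krt20 and Krt23 lie past 2-fold on the right, and within Lgr5-, Krt18 lies past 2-fold on the right and Krt19 past it on the left.

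Because both chains of a filament are needed, the change of each type I keratin was set against that of Krt8 in the same pair of arrays. A shift that scales a whole array cancels in this difference. Within Lgr5+, Krt18 was higher with the tuft marker by 0.73 more than Krt8 (error 0.29). Within Lgr5- the excess was 1.58 (error 0.29), a 2.99-fold change of the ratio of the 2 signals. Krt19 went the other way, by -1.42 relative to Krt8 within Lgr5+ and by -1.88 within Lgr5- (error 0.29 each). Krt20 stayed nearest to Krt8, at 0.32 and -0.23, and Krt23 lay at 0.51 and 0.81 (errors 0.29). Relative to Krt7, the other type II chain, the order differed. Within Lgr5+, Krt18, Krt19, Krt20 and Krt23 lay at 2.19, 0.04, 1.77 and 1.96, so Krt19 stayed nearest to Krt7 there. Within Lgr5- they lay at 2.05, -1.41, 0.24 and 1.27 relative to Krt7 (errors 0.29 to 0.30).

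Between both type I chains that moved apart, Krt18 minus Krt19 was 2.15 for the tuft marker within Lgr5+ and 3.46 within Lgr5- (error 0.29 each). The ratio of their signals was thus 4.44-fold higher in double positive than in Lgr5-only cells and 11.0-fold higher in tuft-only than in double negative cells. Other keratin pairs compared this way lay closer together. Within Lgr5+ and then Lgr5-, Krt18 minus Krt20 was 0.41 and 1.81, and Krt19 minus Krt20 was -1.74 and -1.65. Krt8 minus Krt7 was 1.45 and 0.47, and Krt20 minus Krt23 was -0.19 and -1.04 (errors 0.29). For Lgr5, the changes relative to Krt8 ran from -0.87 for Krt23 to 0.37 for Krt19 within tuft marker+ cells and from -0.58 for Krt23 to 0.28 for Krt18 within tuft marker- cells.

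**Figure D4:**
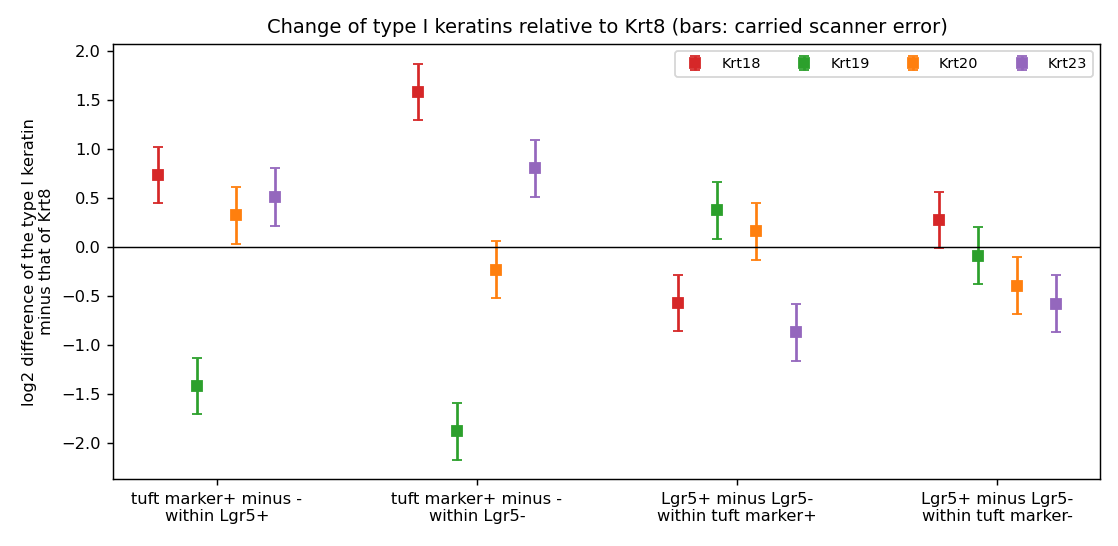
Log2 difference of each type I keratin minus the log2 difference of Krt8 in the same pair of arrays, with the carried scanner error as bars. Krt18 lies above 0 by 0.73 and 1.58 and Krt19 below 0 by -1.42 and -1.88 in the tuft marker pairs.

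The shape of the 4 values was compared between genes as the root-mean-square difference of levels centred on each gene's own mean over the 4 arrays, which describes these arrays only. Krt8 and Krt20 were the closest pair of keratins, at 0.15, followed by Krt18 and Krt23 at 0.40, while Krt18 and Krt19 were the farthest apart, at 1.45. Among 14047 other genes above background on all 4 arrays, those nearest to Krt18 were the photoreceptor membrane gene Rom1 (0.04), the inositol phosphatase gene Inpp4b (0.04) and Pfkfb3, which makes an activator of glycolysis (0.05), and 109 genes lay within 0.25. Nearest to Krt23 were the growth factor gene Pdgfc (0.06), the lysosomal cathepsin gene Ctsz (0.09) and the amino acid transporter gene Slc36a1 (0.10), with 101 genes within 0.25. Nearest to Krt19 were Farp2, Myef2 and Ctdspl2 (0.05 each; 301 genes within 0.25), and nearest to Krt20 were the agouti gene a, the interferon regulatory factor gene Irf2 and 1700037H04Rik (0.04 each; 688 genes within 0.25). Some of these matches were dim. Inpp4b stood at -3.34 in Lgr5-only and -3.18 in double negative cells, and the agouti gene at -3.66 in Lgr5-only cells. The lowest level well above background was -3.86 and -3.69 on those 2 arrays. Krt7 and Krt8 spanned less than 1 and were not matched.

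The genes behind the sort and markers of other cells are set beside these values. As background for the list counts below, 10.4% of all genes were at least 2-fold higher with the tuft marker and 8.08% lower within Lgr5+. Within Lgr5-, 16.3% were higher and 12.2% lower. For Lgr5, 8.92% were higher and 11.3% lower among tuft marker+ cells, and 6.44% and 5.25% among tuft marker- cells. Lgr5 was at least 2.88 higher on the log2 scale in Lgr5+ than in Lgr5- cells that carried the tuft marker and 2.39 higher in those without it. Il17rb was 2.75 higher on the log2 scale with the tuft marker in Lgr5+ cells and at least 3.80 higher in Lgr5- cells. Epcam stood at 5.02, 5.22, 4.52 and 5.56 in double positive, Lgr5-only, tuft-only and double negative cells. Tuft cell markers were at least 2-fold higher with the tuft marker for 10 of 12 measured genes within Lgr5+ and 11 of 13 within Lgr5-, with the phospholipase gene Plcb2 at 4.77 and 5.66. Macrophage markers were higher too, for 10 of 14 and 12 of 14 genes, with the complement gene C1qc at least 6.65 and 5.92 higher and the oxidase gene Cybb at 5.12 and 5.49. Their summed signal, in units of the array's 75th percentile, was 273 and 42.1 in double positive and Lgr5-only cells and 475 and 48.2 in tuft-only and double negative cells, with 14, 11, 14 and 13 of 14 above background. The lipoprotein gene Apoe made up 68.6% of it in double positive and 68.8% in tuft-only cells. In Lgr5-only and double negative cells its share was 3.89% and 22.3%. Without Apoe the sum was 85.8 and 40.5 in the first pair and 148 and 37.4 in the second. This sum still held Csf1r, which was bright and nearly level over the populations (picked out after its values were seen). Csf1r stood at 4.69, 4.74, 4.87 and 4.71 in double positive, Lgr5-only, tuft-only and double negative cells. Stromal and endothelial markers were at least 2-fold higher for 6 of 8 and 10 of 12 measured genes, with Col3a1 at 3.19 and 4.94. Their summed signal was 41.8 and 32.5 in double positive and Lgr5-only cells, and 64.6 and 42.2 in tuft-only and double negative cells. The smooth muscle actin gene Acta2 was from 35.5% to 94.5% of it, and without Acta2 the sum was 12.7 and 1.92 in the first pair and 41.6 and 2.32 in the second. Apoe and Acta2 were left out after the values were seen. Pancreatic acinar genes were at least 2-fold lower for 8 of 8 within Lgr5+ (median -3.99) and higher for 8 of 8 within Lgr5- (median 2.26). Lymphocyte markers of T and NK cells had medians of -0.23 and 1.06, and those of B and plasma cells 0.41 and 1.33. Medians for other epithelial cells were -0.25 and -0.50 for Paneth, -0.94 and -1.66 for enteroendocrine, 0.01 and -1.08 for crypt base stem and 0.10 and 0.55 for squamous and basal markers. The 0.10 was the value of Trp63, which was bright and nearly level (picked out after its values were seen). Trp63 stood at 6.56, 6.46, 6.44 and 6.66 in double positive, Lgr5-only, tuft-only and double negative cells. Whether its probe reads that transcript was not tested. For Lgr5 among tuft marker+ and then tuft marker- cells, the medians were -4.55 and 1.94 for pancreatic acinar, 1.85 and 1.32 for Paneth, 1.68 and 0.89 for goblet and 0.36 and -0.28 for enteroendocrine markers. They were 1.23 and 0.24 for crypt base stem, 0.03 and 1.19 for tuft, -1.999 and -0.14 for stromal and -0.90 and -0.63 for macrophage markers. The part of these cells in the keratin differences of either axis was not tested. The mesothelial markers Msln, Upk3b and Lrrn4, defining genes of another keratin-rich cell type, were above background on 0 arrays. For the other 2 mesothelial genes, the median difference with the tuft marker was -0.53 within Lgr5+ and 2.11 within Lgr5-. Both medians include Wt1, which was not above background in double positive or double negative cells (picked out after its values were seen).

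Epithelial genes other than keratins did not share the Krt18 pattern. Within Lgr5+, 0 of 15 were at least 2-fold apart, with a median of -0.03, and within Lgr5- 1 was at least 2-fold higher and 6 lower, with a median of -0.93. Within Lgr5-, where Krt18 differed by 1.58, Epcam differed by -1.04, the E-cadherin gene Cdh1 by -0.93 and the gut lectin gene Lgals4 by -0.93, the last 2 picked out after their values were seen. Krt19, at -1.88, lay on the side of that median, and the tight junction gene Ocln (-2.21, picked out after its value was seen) was lower still. The 1 gene at least 2-fold higher was Spint1, a protease inhibitor gene, at 1.29 (picked out after its value was seen). Between Lgr5+ and Lgr5- cells the epithelial median was 0.73 among tuft marker+ cells and -0.22 among tuft marker- cells, and the Krt19 difference had the same signs, at 0.90 and -0.48.

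Enterocyte markers were set beside Krt20, which marks differentiated cells. For the tuft marker, within Lgr5+, 7 of 14 measured enterocyte markers passed 2-fold upward and 0 downward (median 1.07), and 1 was higher and 7 lower within Lgr5- (median -0.80). For Lgr5, 5 of 14 were higher and 0 lower within tuft marker+ (median 0.87), and 0 were higher and 10 lower within tuft marker- (median -1.11). The Krt20 differences in the same pairs were 1.24, -0.23, 0.69 and -0.78. Apoc3, an apolipoprotein gene, was the 1 enterocyte marker at least 2-fold higher with the tuft marker in both Lgr5 classes, at 4.01 and 1.48. Among goblet cell markers, 0 of 10 were at least 2-fold higher with the tuft marker and 4 were lower within Lgr5+ (median -0.73), and 0 were higher and 9 lower within Lgr5- (median -1.53), with Retnlb at -1.85 and -2.15.

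**Figure D5:**
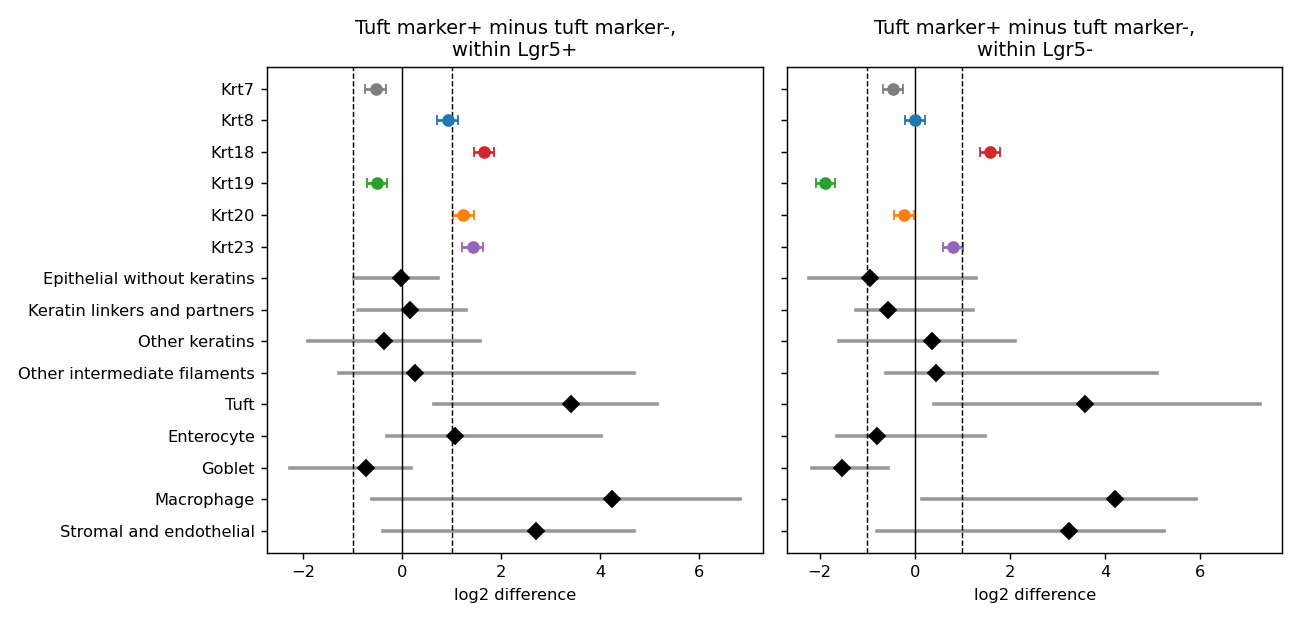
Log2 difference between tuft marker+ and tuft marker- cells within Lgr5+ (left) and within Lgr5- (right) for each keratin (circles, scanner error as bars) and for 9 gene lists (diamonds at the median, grey lines from the lowest to the highest measured gene), with dashed lines at 2-fold. Within Lgr5-, Krt18 lies at 1.58 while the median of the other epithelial genes lies at -0.93.

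Genes that tie keratin filaments to desmosomes and to each other were described as the nearest part of the same system. Of 17 measured linkers and partners, 1 was at least 2-fold higher with the tuft marker and 0 lower within Lgr5+ (median 0.15), and 1 was higher and 2 lower within Lgr5- (median -0.55). Over all genes, 10.4% were higher and 8.08% lower within Lgr5+, 16.3% and 12.2% within Lgr5-, and 4.75% were higher in both. The linker gene higher in both was Eppk1, which encodes epiplakin, a plakin that binds keratin networks. Its level was 3.40 and 2.10 in double positive and Lgr5-only cells, and 2.94 and 1.71 in tuft-only and double negative cells, a difference of 1.29 and 1.23. The 2 lower genes within Lgr5- were Jup, encoding plakoglobin (at -1.12), and Ppl, encoding periplakin (at -1.23 or lower, since it was not above background in tuft-only cells), both picked out after their values were seen. For Lgr5, 1 of 17 was at least 2-fold higher within tuft marker+ (Jup, 1.18) and 0 of 17 were apart within tuft marker-.

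Other intermediate filament genes moved in different ways. Vim, encoding vimentin of mesenchymal and blood cells, was 4.69 higher with the tuft marker within Lgr5+ and 5.09 higher within Lgr5-, with levels of 2.21 and -2.48, and of 2.62 and -2.46, in tuft marker+ and tuft marker- cells. It was the 1 gene of this list at least 2-fold higher in both, where 3 of 14 measured genes were higher within each Lgr5 class. Over all genes, 10.4% were higher within Lgr5+, 16.3% within Lgr5- and 4.75% in both. The lamin gene Lmna, whose product lines the nucleus, differed by -0.03 and -0.01 (picked out after its values were seen). Iffo2, an intermediate filament family gene, was higher in Lgr5+ than in Lgr5- cells, by 1.84 within tuft marker+ and 2.94 within tuft marker-.

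The other keratin genes are mostly those of stratified epithelium, hair and skin. None of them was at least 2-fold apart the same way with the tuft marker in both Lgr5 classes. Over all genes few were, 4.75% higher in both and 1.38% lower in both. Of 48 with a probe, 37 were above background on at least 1 array and 21 on all 4. In double positive, Lgr5-only, tuft-only and double negative cells 22, 37, 33 and 32 were, so many differences are limits. With the tuft marker, 2 of 37 measured were at least 2-fold higher and 3 lower within Lgr5+, beside 10.4% and 8.08% of all genes. Within Lgr5-, 6 of 35 were higher and 2 lower, beside 16.3% and 12.2% of all genes. Among the 12 with the widest span, Krt6b stood at -2.68, -0.78, -1.67 and -1.96 in double positive, Lgr5-only, tuft-only and double negative cells. Krt42 stood at 1.46, 2.09, 0.76 and 2.36, and Krt10, a type I chain of skin, at -2.07, -3.18, -1.73 and -2.43 in the same order. The basal cell keratin Krt14 was not above background in double positive cells and stood at -2.55, -1.97 and -2.82 in the other populations. Within tuft-only cells the others of the 12 (Krt83, Krt88, Krt34, Krt77, Krt12, Krt75, Krt26 and Krt6a) lay between -2.59 and -0.17.

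Transcription factor genes of the intestinal epithelium were compared last. Within Lgr5+, 0 of 22 were at least 2-fold higher with the tuft marker and 1 lower, and within Lgr5- 0 were higher and 11 lower, with medians of -0.01 and -1.02. Foxa3, a forkhead factor gene, was lower in both, at -1.22 and -2.46. For Lgr5, 8 of 22 were higher within tuft marker+ (median 0.87) and 1 of 22 within tuft marker- (median 0.03), and Foxa2, a related forkhead factor gene, was higher in both, at 1.55 and 2.21.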

How the data were processed

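RNA from the 4 populations (13 ng each, per the labels' protocols) was measured on 4 one-colour Cy3 arrays, all on 1 slide. Agilent Feature Extraction read the spots, as version 12.0.3.1 per the file headers and 11.5.1.1 per the submitters' processing notes, a difference that is not settled here. The authors deposited the intensity of each spot, background-subtracted and detrended within the array per the file headers and not scaled between arrays, its error, and flags of 0 or 1. The authors' value table, also deposited, held the same intensities times 1 constant per array (10.9, 7.82, 11.9 and 9.08 for double positive, Lgr5-only, tuft-only and double negative), as its values show; its column medians were 279, 286, 365 and 253 on a linear scale, not centred by gene.

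Of 59305 non-control spots, 91 to 122 per array marked as outliers were left out, and 0 were saturated. Between 60.1% and 68.9% of spots were well above background. The deposited intensity was turned to log2, the array's 75th percentile was subtracted, and copies of a probe were averaged (median SD 0.06 over 300 probes spotted 10 times). Of 56605 probes, 32994 were named by accession through a RefSeq table of GRCm38.p6, and a gene took its brightest probe. The grid was annotated on an older build, so no gene coordinates are given beside those of the RefSeq sequences. A level under the lowest level well above background on its array was raised to it, so differences from it are printed as lower limits. Genes above background on at least 1 array of a pair were measured there, and 2-fold was the call. Errors were carried from the scanner's. The RefSeq table lists a Krt8 pseudogene, and whether the probe reads it was not tested.

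The keratins and all lists were chosen with earlier results of these data known. All keratins were named, and for those spanning at least 1 log2 unit the 3 genes nearest in shape. Of the other keratins, the 12 with the widest span could be named, and of each list up to 4 genes at least 2-fold apart the same way in both pairs of an axis; genes named outside this rule are marked. With 1 array per population nothing was tested. The scanner files hold no mean signal column, so normexp (limma 3.58.1, R 4.3.3, offset 50) used the median signal. Other steps ran in Python 3.11.15 with pandas 2.3.3 and numpy 2.4.6. The code for calls and errors was run on simulated arrays. Their noise was drawn from the same scanner error, and the planted changes were larger than 2-fold. This checks the arithmetic, and cannot show whether the scanner error matches the real spread between arrays.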

Additional observations from a re-analysis of the deposited data

Results flagged for a closer look

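Of the keratins, 3 differed in opposite directions in the 2 classes of the same contrast, by more than the scanner error each time, and with 1 array per population these differences between classes were not tested. Krt20 differed by 1.24 with the tuft marker within Lgr5+ and by -0.23 within Lgr5-, the second turned to 0.065 by the authors' value table. For Lgr5, Krt20 differed by 0.69 within tuft marker+ and by -0.78 within tuft marker-, Krt19 by 0.90 and -0.48, and Krt8 by 0.53 and -0.39. In the same pairs the median pancreatic acinar gene differed by -4.55 and 1.94 and the median enterocyte gene by 0.87 and -1.11, and their part in the keratin values was not tested. The difference between both tuft marker effects was 1.47 for Krt20, 1.38 for Krt19 and 0.91 for Krt8 (error 0.29 each), and 19.8%, 22.9% and 44.4% of 16757 genes had a difference between classes as large or larger.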

How the results depend on the processing

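Of 9 other settings, 4 could not change a keratin value, since each keratin has 1 probe that is above background on all 4 arrays. Of the other 5, quantile normalization and a 75th percentile over probes above background on all arrays moved no keratin difference by more than its scanner error. Scaling to the array median shifted the median of all genes by 0.10, -0.23, 0.22 and -0.11, for the tuft marker in Lgr5+ and then Lgr5- cells and for Lgr5 in tuft marker+ and then tuft marker- cells. For the tuft marker within Lgr5- it put Krt7, Krt8, Krt18, Krt19, Krt20 and Krt23 at -0.70, -0.23, 1.35, -2.11, -0.46 and 0.57, and for Lgr5 within tuft marker+ at 0.63, 0.75, 0.18, 1.12, 0.91 and -0.12. It made 1 keratin (Krt19) at least 2-fold higher in that pair and 1 (Krt23) lower for Lgr5 within tuft marker-, and with Krt8 at 1.02 it put 4 keratins, not 3, at least 2-fold higher with the tuft marker within Lgr5+. The authors' value table shifted the median of all genes by 0.29 for the tuft marker within Lgr5-, put the 6 keratins there at -0.17, 0.30, 1.88, -1.58, 0.065 and 1.10, and made 2 of them at least 2-fold higher. Normexp put Krt23 at 0.97 for the tuft marker within Lgr5+, which left 2 keratins at least 2-fold higher there, and at -0.65 for Lgr5 within tuft marker-; the cause was not tested. Under these 5 settings the tuft marker difference of Krt18 ran from 1.54 to 1.75 within Lgr5+ and from 1.35 to 1.88 within Lgr5-, and that of Krt19 within Lgr5- from -2.11 to -1.58. No paired analysis was possible because each population has 1 array. The scanner error of a level reached 0.15 for the dim Krt7 and Krt23 probes and was 0.14 for the others, and it leaves out the spread between arrays, which 1 array per population cannot show.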

Other observations

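A few keratin probes outside the simple epithelial group were bright on all 4 arrays, picked out after their values were seen. Krt222, a keratin-like gene, stood at 8.98 in double positive cells, 8.48 in Lgr5-only cells, 8.89 in tuft-only cells and 8.95 in double negative cells. Krt79, known from hair follicles, stood at 4.45, 4.91, 5.14 and 4.06 in the same order, and Krt16, a keratin of stressed skin, at 1.81, 2.49, 2.63 and 1.93. Whether these probes read the named transcripts was not tested. Nes, encoding nestin of progenitor cells, differed by -1.28 with the tuft marker within Lgr5+ and by 1.40 within Lgr5-, and Prph, encoding peripherin of nerve cells, by 2.31 and -0.08, both also picked out after their values were seen.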
